A study of Mus musculus with 8 samples.

Results

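Il10, Il10ra and Il10rb, the genes of the cytokine interleukin-10 (IL-10) and of the 2 chains of its receptor, were followed across T cells and macrophages of the mouse colonic lamina propria, the connective tissue under the gut epithelium. The 3 genes were taken by symbol from the 31053 rows of each count table, and all 3 were found. Transcripts had been counted as unique molecular identifiers (UMIs, which count captured molecules rather than amplified reads) by droplet 3′ single-cell RNA sequencing of cells enriched with a CD4+ T cell kit. All mice were C57BL/6, 10 to 12 weeks old and kept free of specific pathogens. Wildtype and mutant mice were each either left untreated or treated with DSS, which made 4 groups of 2 libraries, described by the submitters as independent biological replicates. DSS (dextran sulfate sodium, which injures the colonic epithelium) was given at 2% in drinking water for 7 days, followed by 3 days of regular water, and untreated mice drank regular water for 10 days. All mice were harvested on day 10. The mutant carries a change in RORγt, the transcription factor that drives the Th17 programme. The change is named RORgtS182A in the design text, RORgtS182 in the treatment protocol and S203AKI in the library titles. How the allele was made, and whether it was carried in all cells, is not given in the sources used here.

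IL-10 is an anti-inflammatory cytokine that restrains macrophages and T cells, and loss of it or of its receptor leads to spontaneous colitis in mice and in humans. The receptor pairs a ligand-binding chain, IL-10Rα (Il10ra), with a shared chain, IL-10Rβ (Il10rb), which also serves IL-22 and type III interferon. Binding activates the kinases JAK1 and TYK2 and the transcription factor STAT3. In the colon, regulatory T cells, which carry Foxp3, and resident macrophages are both known sources of IL-10, and macrophages are a main responding cell.

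In the GRCm38 (mm10) annotation, Il10 (ENSMUSG00000016529) lies on chromosome 1 at 131019845-131024974 on the plus strand. Il10ra (ENSMUSG00000032089) lies on chromosome 9 at 45253837-45269149 on the minus strand. Il10rb (ENSMUSG00000022969) lies on chromosome 16 at 91406164-91425834 on the plus strand. The gene model Gm21970 overlaps Il10rb on the same strand and has a row of its own, at 0 UMIs in all 4 populations described here. How reads that overlap both were assigned is not given in the sources used here, so the Il10rb count is uncertain in that respect.

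The libraries held 34497509 to 46960005 UMIs, and the authors' cell list kept 2749 to 4725 cells in each, 27420 in all, with a median of 2173 to 3523.5 UMIs per cell. Every listed cell had at least 1 Cd4 UMI. Clustering without the 3 genes placed 20730 listed cells in 9 T cell clusters and 2894 in a cluster with macrophage markers. The listed cells were therefore not T cells alone. T cells with a Foxp3 UMI and no Il17a UMI numbered 2918 (123 to 860 per library), those with an Il17a and no Foxp3 UMI 4216, those with neither 13061, and 535 had both and form no group of their own. T cells whose Foxp3 or Il17a transcript was missed by the sequencing fall among the other T cells. An Il17a UMI alone did not mark a T cell: at 1000 UMIs per cell it was seen in 17.4% of listed T cells, 17.7% of listed fibroblasts, 4.22% of listed macrophages and 4.24% of fibroblasts outside the list without a Cd4 UMI. The part of free RNA in the choice of Il17a+ T cells was not tested. A Foxp3 UMI was seen in 7.08%, 1.33%, 1.07% and 0.289% in the same order. These shares are means over the 8 libraries, and that of Foxp3 in listed fibroblasts was higher after DSS, as given below. The macrophage cluster was named, and the T cell clusters were chosen, by the same marker lists. Their levels therefore describe the cells and do not test the labels. All 10 macrophage markers were detected in every library. They summed to 9835 to 14562 CPM (UMIs of a gene per 1000000 UMIs of the population in that library), against 48.1 to 168 in the Foxp3+ T cells. The 8 T cell markers summed to 3306 to 4446 CPM in Foxp3+ T cells and to 339 to 578 in macrophages. T cell cluster 9 was led by seminal vesicle and prostate genes with Hspa1a, and 30.9% of its cells came from untreated mutant replicate 1. Pairs of libraries shared at most 9 listed barcodes.

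By mean over the 8 libraries, Il10 was highest in Foxp3+ T cells, lower in macrophages and lowest in Il17a+ and other T cells. In Foxp3+ T cells the level was 351 and 277 CPM in the untreated wildtype libraries and 291 and 361 in the untreated mutant libraries. It was 216 and 274 CPM in the DSS-treated wildtype and 252 and 208 CPM in the DSS-treated mutant libraries. Over the 8 libraries this gave 279 ± 55.8 CPM (SD, n = 8). In macrophages the 8 libraries, in the same order of groups, gave 122 and 133, 192 and 164, 217 and 166, and 139 and 95.7 CPM. Macrophage Il10 thus ranged up to the lower end of the Foxp3+ range. In DSS-treated wildtype replicate 1 macrophages, at 217 CPM, were not below Foxp3+ T cells, at 216 CPM. Foxp3+ T cells and macrophages were not tested against each other.

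**Figure D1:**
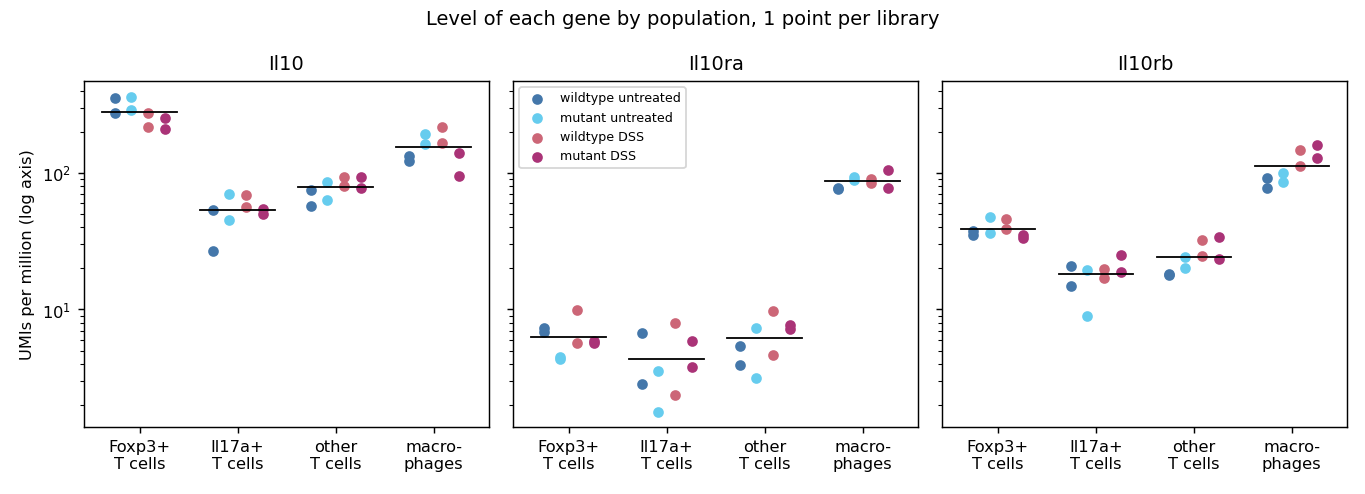
Level of Il10, Il10ra and Il10rb in CPM on a log axis, by population on the horizontal axis, with 1 point per library coloured by group. Il10 points of Foxp3+ T cells lie between 208 and 361 CPM, above all points of the Il17a+ and other T cells, whereas Il10ra and Il10rb are highest in macrophages.

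In other T cells Il10 was at 57.3 and 75.6 CPM in the untreated wildtype, 63.6 and 85.2 in the untreated mutant, 80.4 and 94.0 in the DSS-treated wildtype and 92.9 and 77.9 in the DSS-treated mutant libraries. In T cells with an Il17a UMI it was at 26.9 and 53.3, 45.5 and 70.7, 56.0 and 69.5, and 50.1 and 54.7 CPM in the same order. The Foxp3+ values did not overlap those of either population, while the Il17a+ and other T cells overlapped. Against other T cells and with the library as a block, Il10 was higher by 1.69 ± 0.13 (log2, SE) in Foxp3+ T cells (adjusted p = 1.2e-12, edgeR's quasi-likelihood test with Benjamini-Hochberg adjustment over all genes tested, n = 8 libraries) and in 8 of 8 libraries. In that comparison 32.3% of the 9521 genes tested were called at an adjusted p under 0.05, so a call by itself was common. Il10 was lower by 0.58 ± 0.14 in Il17a+ T cells (log2 change -0.58, adjusted p = 0.0030, background 16.5% of genes called). It was higher by 1.19 ± 0.13 in macrophages (adjusted p = 1.8e-10, background 77.8%). All 3 calls held under every alternative run for them. The 535 cells with both Foxp3 and Il17a had a pooled level of 170 CPM, between the pooled 54.2 CPM of Il17a+ and 246 CPM of Foxp3+ T cells.

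The share of cells with at least 1 Il10 UMI followed the same order. It averaged 43.4% of Foxp3+ T cells, 27.9% of macrophages, 9.81% of other and 8.67% of Il17a+ T cells over the 8 libraries, at median depths per library of 2453 to 3924, 2686.5 to 6181, 1764 to 2560 and 2056 to 3298.5 UMIs. With each cell thinned to 1000 UMIs, and cells below that left out, the shares were 23.7%, 12.0%, 5.73% and 3.62%. Left out were 37 Foxp3+ T cells, 66 macrophages, 465 other and 94 Il17a+ T cells. Fibroblasts outside the list without a Cd4 UMI, which should lack Il10, gave 0.960% when thinned and 3.59% unthinned, at median depths of 3740 to 6663 UMIs. All 4 populations stood above that background in mean share. Cells of other types on the authors' list, which all have a Cd4 UMI, gave a higher background. Listed fibroblasts held Il10 at 17.5 to 47.6 CPM and listed plasma cells at 16.4 to 58.6 CPM, ranges that overlap the 26.9 to 70.7 CPM of the Il17a+ T cells. An Il10 UMI was seen in 14.4% of listed fibroblasts and 14.5% of listed plasma cells, at median depths of 6630.5 to 11793.5 and 5233.5 to 11024 UMIs, and in 2.54% and 3.18% of them when thinned in a separate draw, in which the fibroblasts outside the list gave 0.759%. Listed NK or ILC cells spanned 11.7 to 120 CPM, and an unnamed listed cluster led by S100a8 and Ccl22 spanned 54.6 to 116 CPM, ranges that also take in the other T cells (57.3 to 94.0 CPM). The Il10 levels of Il17a+ and of other T cells were therefore not separated from those of listed cells of other types. The highest values of the NK or ILC cells and of the unnamed cluster also lay above the lowest macrophage library, at 95.7 CPM.

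Il10ra, the ligand-binding chain, was highest in macrophages among the 4 populations and close to the fibroblast background in T cells. In macrophages it was at 75.8 and 78.1 CPM in untreated wildtype, 93.6 and 89.5 in untreated mutant, 84.5 and 90.3 in DSS-treated wildtype and 104 and 77.3 in DSS-treated mutant libraries. Over the 3 T cell populations it ranged from 1.79 to 9.99 CPM. The 2918 Foxp3+ T cells held 76 Il10ra UMIs in all. Macrophages and T cells did not overlap in any library. Il10ra was higher in macrophages than in other T cells by 4.01 ± 0.13 (log2, adjusted p = 5.4e-25, n = 8 libraries), the call holding under every alternative run for it. Among T cells no difference was called: Foxp3+ against other T cells gave -0.06 ± 0.23 (adjusted p = 0.87) and Il17a+ against other T cells -0.65 ± 0.24 (adjusted p = 0.065). The latter was called under 4 of 15 alternatives, with adjusted p between 0.0029 and 0.17, and without untreated wildtype replicate 1 it was -0.81 (adjusted p = 0.023).

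A UMI of Il10ra was seen in 29.5% of macrophages, 2.34% of Foxp3+, 1.60% of other and 1.44% of Il17a+ T cells. At 1000 UMIs per cell the mean shares were 8.41%, 0.912%, 0.670% and 0.528%, against 0.292% in the fibroblasts used as background. The share was lower in plasma cells outside the list without a Cd4 UMI, at 0.0589% (0 to 0.268% over the libraries). Their range lay below that of other T cells (0.306% to 1.02%) and overlapped those of Foxp3+ and Il17a+ T cells. The libraries of Foxp3+ T cells (0 to 1.68%) and of fibroblasts (0 to 0.640%) overlapped in that share. Levels of Il10ra in single T cell populations therefore carry little information at this depth.

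Il10rb, the shared chain, was counted in all 4 populations and was highest among them in macrophages. At 1000 UMIs per cell a UMI of it was seen in 11.8% of macrophages, 3.85% of Foxp3+, 2.47% of other and 1.76% of Il17a+ T cells, against 3.48% of the fibroblasts and 3.72% of the plasma cells outside the list without a Cd4 UMI. Over the libraries the share in Foxp3+ T cells (2.23% to 6.27%) overlapped those of these fibroblasts (2.32% to 5.06%) and plasma cells (2.34% to 6.06%). No cell type known to lack Il10rb was at hand as a background, so its presence in Foxp3+, Il17a+ and other T cells was not shown apart from free RNA. Macrophages held 91.4 and 77.2 CPM in untreated wildtype, 100 and 85.6 in untreated mutant, 113 and 148 in DSS-treated wildtype and 128 and 161 in DSS-treated mutant libraries. Foxp3+ T cells held 35.1 and 37.4, 47.5 and 36.1, 38.7 and 46.1, and 33.2 and 35.2 CPM in the same order. Other T cells ranged from 18.0 to 33.7 CPM and Il17a+ T cells from 8.92 to 24.9 CPM. Macrophages overlapped no T cell population, and Foxp3+ T cells overlapped other T cells only at the edge. Against other T cells, Il10rb was higher by 2.44 ± 0.09 in macrophages (log2, adjusted p = 8.3e-23) and by 0.52 ± 0.12 in Foxp3+ T cells (adjusted p = 7.0e-04). The Foxp3+ call was lost in 1 of 15 alternatives, with at least 2 UMIs required of a positive cell (0.26, adjusted p = 0.16; range over alternatives 7.0e-05 to 0.16). In Il17a+ T cells Il10rb was lower by 0.36 ± 0.12 (log2 change -0.36, adjusted p = 0.042). That call was lost without untreated wildtype replicate 2 (-0.37), untreated mutant replicate 1 (-0.28), DSS-treated wildtype replicate 1 (-0.38) or 2 (-0.32), or DSS-treated mutant replicate 1 (-0.38), and held in 7 of 15 alternatives with adjusted p between 0.0012 and 0.14.

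Cells outside the authors' list gave the wider setting of the receptor. Il10rb reached 26.7 to 44.6 CPM in fibroblasts and 31.6 to 46.9 CPM in endothelial cells, ranges that overlap the Foxp3+ range, with Il10ra at 2.14 to 5.31 and 0.944 to 3.90 CPM in the same cells. Dendritic cells outside the list held Il10ra at 16.6 to 48.7 CPM and B cells at 6.74 to 27.0 CPM. The 181 neutrophils outside the list held pooled levels of 70.7 CPM of Il10ra and 141 CPM of Il10rb, but with as few as 9 cells in a library these ran from 19.8 to 269 and from 0 to 199 CPM over the libraries. Macrophages outside the list held pooled levels of 139.5, 70.9 and 114 CPM of Il10, Il10ra and Il10rb. Their Il10 differed between the 2 clusters they came from, at 120 to 249 CPM over the libraries in the cluster led by Ms4a7 and the complement genes C1qb and C1qa (pooled 173) and 52.0 to 99.5 CPM in that led by Chil3 and Retnla (pooled 70.0). The 2 clusters held Il10rb at pooled levels of 115 and 112 CPM and Il10ra at 77.2 and 57.5 CPM, in the same order.

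Where the Il10 UMIs of the listed cells came from differed between untreated and DSS-treated libraries. Foxp3+ T cells supplied 20.1% of them in untreated wildtype and 14.6% in untreated mutant libraries (means of 2), and 33.2% and 34.0% after DSS. They made up 5.72% and 5.25% of the listed cells in untreated and 14.4% and 13.9% in DSS-treated libraries, in the same order of genotypes. Macrophages supplied 29.0% and 35.9% of Il10 UMIs in untreated and 14.3% and 9.64% in DSS-treated libraries, at 14.4%, 13.9%, 8.01% and 7.65% of the cells. The untreated mutant libraries were far apart, at 49.0% and 22.7% of Il10 UMIs from 19.0% and 8.73% of the cells, and the value of replicate 2 lies below both untreated wildtype libraries (31.0% and 27.0%). All 4 DSS-treated libraries were lower, at 7.68% to 17.3%. For Foxp3+ T cells the libraries ranged from 14.4% to 25.1% in untreated and from 26.8% to 41.3% in DSS-treated mice. Other T cells supplied 24.4% to 27.3% in all groups. For Il10ra the macrophage share was 69.4% and 75.5% in untreated and 47.5% and 45.7% in DSS-treated libraries. These shares depend on the isolation and on the choice of cells with a Cd4 UMI, and say nothing of the whole tissue.

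**Figure D2:**
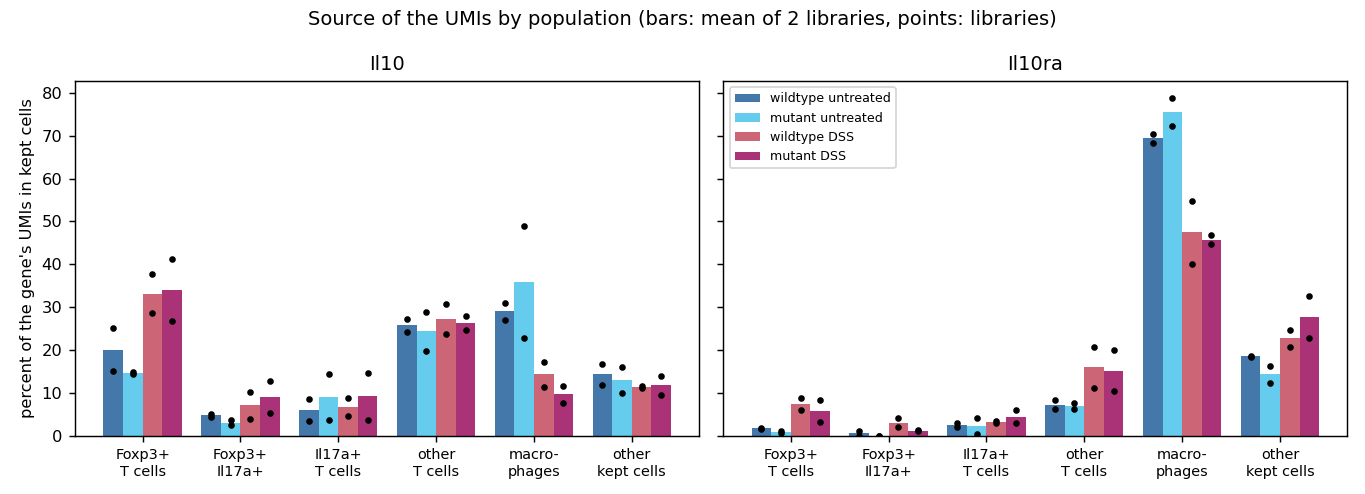
Share of the UMIs of Il10 and Il10ra in listed cells, in percent, that came from each population, with bars for the mean of 2 libraries and points for the libraries. For Il10 the Foxp3+ bars stand at 14.6 to 20.1% in untreated and 33.2 to 34.0% in DSS-treated groups, while the macrophage bars go from 29.0 to 35.9% to 9.64 to 14.3%.

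Within Foxp3+ T cells the Il10 level was lower after DSS, although there were more such cells. The untreated libraries held 277 to 361 CPM and the DSS-treated libraries 208 to 274 CPM, so the 4 and 4 libraries did not overlap. That separation rests on leaving out the T cells with both Foxp3 and Il17a, 19 to 136 per library. Untreated wildtype replicate 2 held 163 Il10 UMIs in 588596 UMIs of Foxp3+ T cells and 56 in 304092 of cells with both. DSS-treated wildtype replicate 2 held 494 in 1801389 and 51 in 282279. With both parts summed, the untreated library is the lower of the 2, so the ranges overlap. Without the cells with both, the mean was 314 ± 52.5 CPM (SD, n = 2) in untreated and 245 ± 41.1 in DSS-treated wildtype, and 326 ± 49.9 and 230.2 ± 31.1 in mutant mice. Within each genotype the difference was not called: -0.40 ± 0.17 in wildtype (log2, SE, adjusted p = 0.31, background 0.558% of genes called) and -0.54 ± 0.17 in mutant mice (adjusted p = 0.10, background 2.03%). Over 16 alternatives each, these values ran from -0.56 to -0.22 and from -0.71 to -0.40. A comparison averaged over the genotypes, added after the levels had been seen, gave a fall of -0.47 ± 0.12 (adjusted p = 0.025, background 8.70%). That call held in 9 of 15 alternatives, with adjusted p between 0.0065 and 0.14. Leaving out 1 library ended it in 4 of 8 cases, namely untreated wildtype replicate 1 (-0.39, adjusted p = 0.12), untreated mutant replicate 2 (-0.40, adjusted p = 0.10), DSS-treated wildtype replicate 1 (-0.39, adjusted p = 0.064) or DSS-treated mutant replicate 2 (-0.40, adjusted p = 0.081). At 1000 UMIs per cell, an Il10 UMI was seen in 29.0% ± 2.44 and 25.1% ± 0.144 of Foxp3+ T cells in untreated wildtype and mutant and in 21.2% ± 2.02 and 19.7% ± 0.683 after DSS (SD, n = 2).

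The 10 macrophage markers summed in Foxp3+ T cells to 49.3 to 77.7 CPM in untreated and 48.1 to 168 CPM in DSS-treated libraries, ranges that overlap, and the 5 neutrophil markers to 0 and to 2.25 to 7.77 CPM. The 5 regulatory T markers summed to 2429 to 2644 CPM in untreated and 2763 to 3090.5 CPM in DSS-treated Foxp3+ T cells, higher where Il10 was lower. They include Foxp3, which chose these cells. Their part in the result was not tested.

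**Figure D3:**
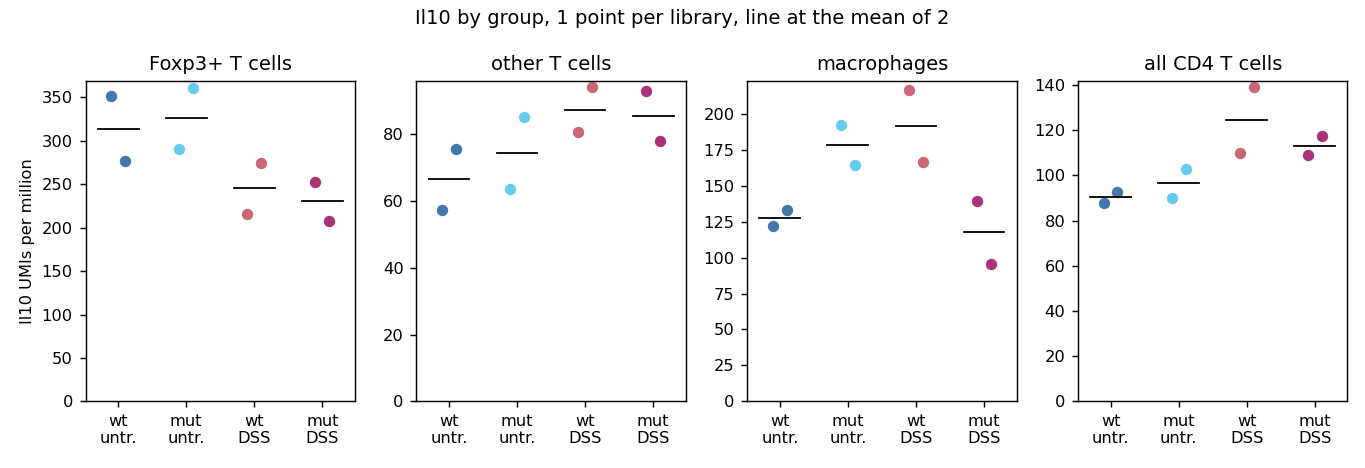
Il10 in CPM by group in Foxp3+ T cells, other T cells, macrophages and all CD4 T cells, 1 point per library and a line at the mean of 2, with axes starting at 0. In Foxp3+ T cells the untreated points (277 to 361 CPM) lie above the DSS-treated points (208 to 274 CPM), and in macrophages the mutant points fall from 164 and 192 to 95.7 and 139 CPM.

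The lower level after DSS was seen inside the largest cluster of Foxp3+ T cells. That cluster supplied most of their Il10 UMIs, so its values are not separate from those above. Cluster 3, led by Foxp3 with Gzmb and Itgae, held 1481 of the 2918 Foxp3+ T cells and 68.0% of their Il10 UMIs, at a pooled 418 CPM. Its cells were 49.0% to 53.9% of the Foxp3+ T cells as group means. Their Il10 was at 561 and 538 CPM in untreated wildtype, 565 and 653 in untreated mutant, 362 and 460.2 in DSS-treated wildtype and 369 and 356 in DSS-treated mutant libraries. The untreated and DSS-treated libraries did not overlap. Cluster 7, led by Il1rl1 (the IL-33 receptor chain ST2) and Klrg1, held 679 Foxp3+ T cells at a pooled 109.6 CPM and 8.88% of the Il10 UMIs. It made up 16.4% and 17.9% of Foxp3+ T cells in untreated wildtype and mutant and 25.5% and 24.1% after DSS. Il10 in its Foxp3+ cells ranged from 86.3 to 187 CPM in untreated and 49.6 to 117 CPM in DSS-treated libraries, which overlapped. Cluster 6, led by cell division genes, held 351 Foxp3+ T cells at a pooled 119.7 CPM. Its Foxp3+ cells, 5 to 24 per untreated and 36 to 115 per DSS-treated library, held Il10 at 132 to 172 CPM in untreated and 93.4 to 197 CPM in DSS-treated libraries. These ranges overlapped, and the highest value was that of DSS-treated mutant replicate 1. No test was made within clusters, whose genes were drawn from these same cells.

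**Figure D4:**
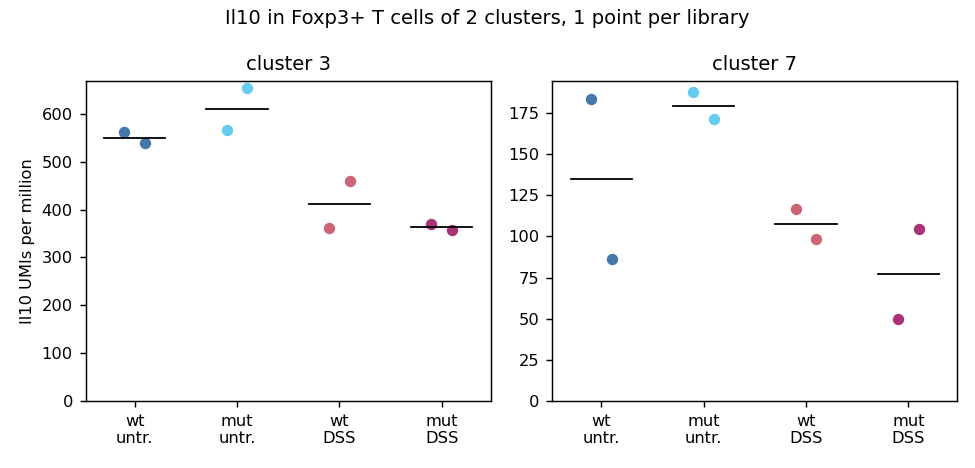
Il10 in CPM in the Foxp3+ T cells of clusters 3 and 7 by group, 1 point per library. In cluster 3 the untreated libraries lie at 538 to 653 CPM and the DSS-treated libraries at 356 to 460.2 CPM, while in cluster 7 the ranges overlap.

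Other T cells did not show the lower Il10 level after DSS. Their untreated libraries held 57.3 to 85.2 CPM and their DSS-treated libraries 77.9 to 94.0 CPM, with an overlap. The DSS difference was 0.34 in wildtype (log2, adjusted p = 0.35, background 0.411% of genes called) and 0.11 in mutant mice (adjusted p = 0.75, background 5.70%), and 0.22 averaged (adjusted p = 0.24, background 17.5%). Il17a+ T cells gave 0.55 in wildtype (adjusted p = 0.51, background 0.0468%), -0.24 in mutant mice (adjusted p = 0.66, background 2.29%) and 0.15 averaged (adjusted p = 0.67, background 5.13%). Over 16 alternatives that wildtype value ran from 0.20 to 1.17. Cluster 3 as a whole held 3814 Il10 UMIs in 2957 T cells, and its 1481 Foxp3+ cells held 1976 of them. The rest lay in its cells with both transcripts, with Il17a alone or among the other T cells. Their part in the level of the other T cells, and in the differences from it, was not tested. The difference between Foxp3+ and other T cells in the DSS effect was tested directly, with the library as a block. Its size was -0.74 ± 0.16 in wildtype (log2, SE, adjusted p = 0.010, background 0.298% of genes called). In mutant mice it was -0.66 ± 0.16 (adjusted p = 0.028, background 0.597%), and averaged over genotypes -0.70 ± 0.11 (adjusted p = 2.8e-05, background 1.77%), the latter 2 added after the data had been seen. The averaged value was called in 15 of 15 alternatives, at -0.89 to -0.50. The wildtype call did not hold with untreated wildtype replicate 1 left out (-0.35, adjusted p = 0.71) or with DSS-treated wildtype replicate 1 left out (-0.69, adjusted p = 0.095), and its adjusted p ranged from 0.0012 to 0.71 over alternatives. The mutant call was lost without untreated mutant replicate 1 (-0.55, adjusted p = 0.25) or DSS-treated mutant replicate 2 (-0.61, adjusted p = 0.41), with a range from 3.4e-05 to 0.41.

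Taken over all CD4 T cells, a lower CPM in Foxp3+ T cells, a larger share of such cells and the levels of the remaining T cells entered 1 sum. All T cells held 87.9 and 92.7 CPM of Il10 in untreated wildtype, 90.0 and 103 in untreated mutant, 109.8 and 139 in DSS-treated wildtype and 109 and 117 in DSS-treated mutant libraries, with no overlap between untreated and DSS-treated. The differences were 0.39 in wildtype (log2, adjusted p = 0.18, background 0.262% of genes called), 0.15 in mutant mice (adjusted p = 0.52, background 5.0%) and 0.27 ± 0.10 averaged (adjusted p = 0.076, background 18.5%). The averaged value was called in 5 of 14 alternatives (adjusted p 0.026 to 0.22), among them without DSS-treated wildtype replicate 1 (0.36, adjusted p = 0.035).

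Macrophage Il10 was lower after DSS in mutant mice, and the test of a genotype difference in the DSS effect was not called. Wildtype macrophage Il10 was at 122 and 133 CPM in untreated and 217 and 166 CPM in DSS-treated libraries, and mutant macrophage Il10 at 192 and 164 CPM and then at 139 and 95.7 CPM. Within each genotype the untreated and DSS-treated libraries did not overlap, and the fitted values had opposite signs. The difference was 0.43 ± 0.21 in wildtype (log2, adjusted p = 0.34, background 0.818% of genes called, 0.052 to 0.60 over 15 alternatives with 0 called), -0.86 ± 0.21 in mutant mice (adjusted p = 0.022, background 10.8%) and -0.21 averaged (adjusted p = 0.34, background 18.2%). Only the mutant fall was called. It was lost without untreated mutant replicate 1 (-0.77, adjusted p = 0.16) or DSS-treated mutant replicate 2 (-0.55, adjusted p = 0.26), and its adjusted p ranged from 0.0013 to 0.26 over 15 alternatives. The difference between the genotypes in the DSS effect was -1.29 ± 0.30 and was not called (unadjusted p = 6.5e-04, adjusted p = 0.59, 0% of genes called). Without a filter on low counts it was called (-1.26, adjusted p = 0.0072), in 1 of 14 alternatives whose adjusted p ran from 0.0072 to 1.0 and whose values ran from -1.58 to -0.70. In the mutant the macrophage DSS effect also differed from that of other T cells (-1.0 ± 0.23, adjusted p = 0.024, background 2.18%). In wildtype it gave 0.07 ± 0.23 (adjusted p = 0.96, background 0.291%). The mutant value was lost without untreated mutant replicate 1 (-0.67, adjusted p = 0.35) or DSS-treated mutant replicate 2 (-0.83, adjusted p = 0.20), over a range from 3.8e-04 to 0.35.

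The macrophage cells themselves differed between untreated and DSS-treated libraries. The 10 macrophage markers summed to 12008 to 14562 CPM in untreated and 9835 to 10517 CPM in DSS-treated libraries, the 8 T cell markers to 339 to 380 and 413 to 578 CPM, and the 5 regulatory T markers to 130 to 167 and 308 to 429 CPM. Median UMIs per macrophage were 4309 to 6181 in untreated and 2686.5 to 4021 in DSS-treated libraries. Within each genotype the untreated and DSS-treated libraries did not overlap in any of the 3 sums or in the median UMIs. Their part in the Il10 values was not tested. At 1000 UMIs per cell an Il10 UMI was seen in 10.9% ± 1.12 of untreated and 13.9% ± 4.07 of DSS-treated wildtype macrophages, and in 14.2% ± 0.621 and 8.99% ± 1.98 of mutant macrophages (SD, n = 2). The wildtype ranges overlapped and the mutant ranges did not. In the separate draw used above for the listed cells of other types, the mutant ranges overlapped too. There DSS-treated mutant replicate 1 stood at 13.9% and untreated mutant replicate 2 at 13.4%.

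Averaged over the genotypes, Il10rb was higher after DSS in macrophages and in all CD4 T cells, although neither call held with every library left out in turn. Il10rb in macrophages was at 77.2 to 100 CPM in untreated and 113 to 161 CPM in DSS-treated libraries, without overlap. The difference was 0.45 in wildtype (log2, adjusted p = 0.27), 0.42 in mutant mice (adjusted p = 0.18) and 0.43 ± 0.14 averaged (adjusted p = 0.040, background 18.2%). In all CD4 T cells Il10rb was at 20.5 and 19.2 CPM in untreated wildtype, 24.3 and 21.4 in untreated mutant, 27.2 and 33.5 in DSS-treated wildtype and 29.5 and 27.2 in DSS-treated mutant libraries, again without overlap. There the difference was 0.54 in wildtype (adjusted p = 0.11), 0.23 in mutant mice (adjusted p = 0.34) and 0.38 ± 0.10 averaged (adjusted p = 0.029, background 18.5%). Both averaged calls rested on single libraries. The macrophage call was lost without either untreated wildtype replicate (0.49 and 0.38), either untreated mutant replicate (0.48 and 0.39), DSS-treated wildtype replicate 2 (0.34) or DSS-treated mutant replicate 2 (0.36), and held in 6 of 14 alternatives (adjusted p 0.0056 to 0.19). The T cell call was lost without either untreated wildtype replicate (0.41 and 0.36), either untreated mutant replicate (0.42 and 0.35), DSS-treated wildtype replicate 2 (0.33) or DSS-treated mutant replicate 1 (0.37), and held in 7 of 14 (adjusted p 0.012 to 0.12). In other T cells the averaged Il10rb difference was 0.42 (adjusted p = 0.063, background 17.5%, called in 5 of 14 alternatives with adjusted p 0.020 to 0.21). It was called without DSS-treated wildtype replicate 1 (0.50, adjusted p = 0.047) or DSS-treated mutant replicate 2 (0.55, adjusted p = 0.039). Foxp3+ T cells gave an averaged Il10rb difference of -0.08 (adjusted p = 0.82).

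Macrophage Il10ra, at 75.8 to 93.6 CPM in untreated and 77.3 to 104 CPM in DSS-treated libraries, overlapped between the conditions. Its difference was 0.02 in wildtype (log2, adjusted p = 0.98), -0.27 in mutant mice (adjusted p = 0.40) and -0.13 averaged (adjusted p = 0.57). Whether the change of Il10rb differed from that of Il10ra was not tested. Il10ra in the T cell populations where it could be tested and Il10rb in Il17a+ T cells gave 8 further tests of DSS within a genotype. None was called by edgeR, none had an unadjusted p under 0.05, and DESeq2 gave an adjusted p for 2 of them and called neither. Il10ra in Foxp3+ T cells had too few UMIs to be tested.

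Between genotypes no member was called in any population. Of 14 tests over 5 populations, edgeR called 0 in untreated mice (1 with an unadjusted p under 0.05) and 0 after DSS (1 with an unadjusted p under 0.05), and DESeq2 called 0 of 9 and 0 of 14. The 1 test under 0.05 was macrophage Il10 in both conditions, at 0.51 ± 0.21 in untreated mutant against wildtype mice (log2, unadjusted p = 0.026, adjusted p = 0.75) and -0.78 ± 0.22 after DSS (unadjusted p = 0.0029, adjusted p = 1.0). Over 15 alternatives each, with 0 called, they ranged from 0.31 to 0.67 and from -1.08 to -0.39, the smallest sizes with off-list barcodes added. Without DSS-treated mutant replicate 2 the latter was -0.47. For the difference between genotypes in the DSS effect, edgeR called 0 of 14 (2 with an unadjusted p under 0.05) and DESeq2 0 of 14. In Foxp3+ T cells mutant against wildtype Il10 gave 0.03 in untreated mice (adjusted p = 0.99) and -0.11 after DSS (adjusted p = 1.0). Few genes of any kind were called between the genotypes. In untreated mice the background was 0.0531% in Foxp3+, 0.0935% in Il17a+ and 0% in other T cells, 0.0553% in macrophages and 0% in all CD4 T cells. After DSS it was 0% in all 5. For the genotype difference in the DSS effect it was 0.0133% in Foxp3+ and 0.0117% in Il17a+ T cells and 0% in the other 3. The comparisons within and between genotypes share their libraries, so their values are not independent of each other.

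Genes of the IL-10 pathway were read from fixed lists. Of 7 signalling genes downstream of the receptor, all were tested between populations. In Foxp3+ against other T cells 2 were called higher, among them the receptor-associated kinase Tyk2 (0.42), and 2 lower, Socs1 (-0.97) and Socs3 (-0.76), both feedback inhibitors of cytokine signalling, where 32.3% of all genes were called. Only 1 was higher when DSS-treated wildtype replicate 1 or any one DSS-treated mutant library was left out. The list's median log2 difference was -0.13, against 0.00 over all genes tested. In macrophages 3 were higher, among them Ptpn6 (2.37), the phosphatase SHP-1, and Socs3 (1.41), and 4 lower, among them Socs1 (-1.15), at a background of 77.8%. Il17a+ T cells had 4 lower and none higher, led by Socs3 (-0.91), at a background of 16.5%. With 1 library left out, 2 to 3 were higher in macrophages, and 3 to 4 were lower and 0 to 1 higher in Il17a+ T cells.

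Of 18 genes that IL-10 is known to induce, which include Il10ra, 17 were tested between populations and 16 were called higher in macrophages. A gene that is low in T cells could pass the filter on low counts only through its level in macrophages, so for the members that passed, being higher there was in part fixed by the filter, and the count supports nothing. The largest values were those of Fcgr1 (7.04), an Fc receptor, Il1rn (6.41), the IL-1 receptor antagonist, Mrc1 (5.80), the mannose receptor, and Hmox1 (5.48), haem oxygenase. Of 12 inflammatory genes that IL-10 is known to hold down in macrophages, only 8 passed the filter, and these were higher in macrophages, led by Il1b (7.22), Il1a (5.92) and Cxcl2 (5.71). The same limit holds for them, and 77.8% of all genes were called in this comparison. In Foxp3+ T cells 4 of the 17 response genes were higher and 6 lower, and in Il17a+ T cells 2 and 4, at backgrounds of 32.3% and 16.5%. The 2 in Il17a+ T cells became 1 without either untreated wildtype or either untreated mutant replicate. In Foxp3+ T cells 3 to 5 were higher and 4 to 6 lower with 1 library left out.

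Transcription factors known to act on Il10 were split by population. Of 12, Foxp3+ T cells had 5 higher, among them Prdm1 (0.80), Nfil3 (0.58), Gata3 (0.48) and Maf (0.33). They had 2 lower, Bach2 (-1.04) and Bhlhe40 (-0.56), where 32.3% of all genes were called. The 5 higher became 4 without untreated mutant replicate 2 or either untreated wildtype replicate. Il17a+ T cells, in which Il10 was lowest, had 7 higher, among them Prdm1 (0.95), Irf4 (0.95) and Rora (0.72), and 1 lower, Bach2 (-0.76), at a background of 16.5%. Of 11 T cell surface genes known to go with Il10, 10 were tested, and 7 were higher and 1 lower in Foxp3+ T cells (background 32.3%), with a median of 0.62 against 0.00 over all genes. They included Klrg1 (2.26), Havcr2 (1.86), the receptor TIM-3, and Lag3 (0.98), an inhibitory receptor. The surface list was split in Il17a+ T cells, at 3 higher and 3 lower (background 16.5%). In macrophages, whose mean Il10 was second to that of Foxp3+ T cells, 1 surface gene was higher and 9 lower (background 77.8%). Of the transcription factors 3 were higher, among them Prdm1 (2.12), and 8 lower, among them Gata3 (-2.24) and Maf (-1.40). A gene low in macrophages could pass the filter on low counts only through its level in T cells. For such genes being lower in macrophages was in part fixed by the filter, and the counts of lower genes support nothing. Il22, the only other ligand of the IL-10 family with enough UMIs to test, was higher in Il17a+ (2.88) and lower in Foxp3+ T cells (-1.36). None of the 5 other receptor chains of the family had enough UMIs to be tested between populations.

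After DSS, 6 of the 18 response genes were called higher and 1 lower in mutant macrophages, where Il10 itself fell and 10.8% of all genes were called. Ddit4 (1.60), Il1rn (0.95), Dusp1 (0.90), Bcl3 (0.83) and Zfp36 (0.77) were among those higher, and Fcgr1 (-1.12) was lower, with a list median of 0.34 against 0.00 for all genes. DESeq2 and scaling by library size gave 6 to 8 higher and 1 lower. Without untreated mutant replicate 1 none of the 18 was called, and without DSS-treated mutant replicate 2 only Bcl3 and Il1rn were. With any other library left out 4 to 6 were higher and Fcgr1 was lower. The count rested on 4 higher genes without DSS-treated mutant replicate 1, without untreated wildtype replicate 1 and without untreated wildtype replicate 2. In wildtype macrophages edgeR called 0 of the 18 (3 with an unadjusted p under 0.05, background 0.818%), as did DESeq2. Those 3 were Fcgr1 (-0.94, adjusted p = 0.079), Cd163 (-1.56, adjusted p = 0.26) and Zfp36 (0.46, adjusted p = 0.27), and Fcgr1 was called lower without either DSS-treated mutant replicate. Differences between the genotypes in these counts were not tested. In the same mutant macrophages 6 T cell surface genes were tested, and Ctla4 (1.35) and Icos (1.10) were called higher and Havcr2 (-0.67) lower. Neither higher call held without untreated mutant replicate 1, Icos was not called without DSS-treated mutant replicate 1, and the Havcr2 call was lost with each of the 8 libraries left out in turn. Ctla4 was also higher in wildtype macrophages (1.17), a call lost without any one wildtype library. The sums given above of T cell markers (339 to 380 and 413 to 578 CPM) and regulatory T markers (130 to 167 and 308 to 429 CPM) were higher, and that of macrophage markers lower, in DSS-treated than in untreated macrophages. Ctla4 is among the regulatory T markers, so their sum is not separate from the Ctla4 calls. The part of these sums in the response gene counts was not tested.

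Of the 12 inflammatory genes, 1 was called higher and 1 lower in mutant macrophages, near the background of 10.8%, and 1 higher in wildtype macrophages (background 0.818%). Ptgs2, the inducible cyclooxygenase, rose in mutant macrophages (1.95) with any 1 library left out. It rose in wildtype macrophages too (1.26), a call lost without either DSS-treated wildtype replicate or untreated wildtype replicate 2. Il12b, a subunit of IL-12 and IL-23, was lower in mutant macrophages (-2.17), a call that held only without DSS-treated mutant replicate 1 or DSS-treated wildtype replicate 2 among the 8 libraries left out in turn. In mutant macrophages the list had 3 higher, with Cxcl1 and Il1b added, without untreated mutant replicate 2, and 2 lower, with Ccl3 added, without DSS-treated mutant replicate 1. Averaged over genotypes, Foxp3+ T cells had 3 of 10 tested surface genes lower after DSS and none higher, at a background of 8.70%. These were Cd226 (-1.5), Tnfrsf4 (-0.58), the receptor OX40, and Lag3 (-0.52). Without 1 library 2 or 3 genes of the list were lower, and Cd226 was among them each time, whereas the Lag3 call held in 3 and was lost in 5 of the 8 cases (without DSS-treated mutant replicate 2, either untreated mutant replicate, DSS-treated wildtype replicate 1 or untreated wildtype replicate 1). With DESeq2 or library-size scaling 1 to 2 were lower. The count was 2 without DSS-treated mutant replicate 2, either untreated wildtype replicate, untreated mutant replicate 2 or DSS-treated wildtype replicate 1. Of 12 transcription factors 2 were lower (background 8.70%), Nfil3 (-0.41) and Bhlhe40 (-0.36). None was called without DSS-treated mutant replicate 2, untreated mutant replicate 2, DSS-treated wildtype replicate 2 or either untreated wildtype replicate.

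Other lists held genes that rose in Foxp3+ T cells after DSS in the same averaged comparison, in which 8.70% of all genes were called. Of 13 tested response genes 4 were higher, Mrc1 (5.34), a macrophage gene, Zfp36 (0.87), Etv6 (0.77) and Bcl3 (0.54), and 1 was lower, Nfil3. Only Zfp36 was called higher with each library left out in turn. The Mrc1 call was lost without untreated mutant replicate 1. The Etv6 call was lost without either untreated mutant replicate, DSS-treated wildtype replicate 1 or untreated wildtype replicate 1. The Bcl3 call was lost without DSS-treated mutant replicate 2, either untreated mutant replicate, DSS-treated wildtype replicate 2 or untreated wildtype replicate 2. DESeq2 called 1 higher. Of the 7 signalling genes 1 was higher, Tyk2 (0.84), a call lost with DESeq2 and without either untreated wildtype replicate, either untreated mutant replicate or DSS-treated wildtype replicate 1. The macrophage markers of these cells, given above, overlapped between untreated and DSS-treated libraries, and their part in the Mrc1 value was not tested.

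Inside the Foxp3+ T cells, those with an Il10 UMI held more Lag3, Maf and Prdm1 and less Gata3 and Il1rl1 than those without. The 2 classes were summed per library and compared with the library as a block, and 356 of 4817 genes tested (7.39%) were called, 192 higher and 164 lower in cells with Il10. Lag3 was at 324 ± 65.9 against 153 ± 48.0 CPM (SD, n = 8), higher in 8 of 8 libraries (1.12 ± 0.08, adjusted p = 4.1e-15). Maf, a transcription factor that drives Il10 in several T cell types, was at 1686 ± 218 against 1192 ± 172 CPM, higher in 8 of 8 libraries (0.50, adjusted p = 4.4e-10). Prdm1, which encodes BLIMP-1, was higher by 0.55 (adjusted p = 6.8e-04) and Nfil3 by 0.36 (adjusted p = 0.0054, and up to 0.070 with 1 library left out). Gata3 was lower by 0.85 (log2 change -0.85, adjusted p = 1.2e-08), in 8 of 8 libraries. Of the 11 tested factors of the list, 3 were higher and 1 lower. Foxp3 itself, which chose the cells, differed by -0.08.

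**Figure D5:**
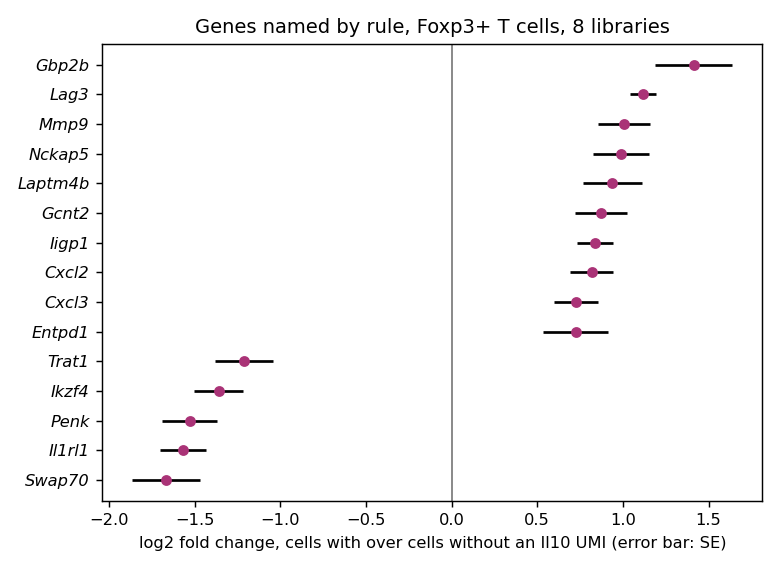
Log2 fold change between Foxp3+ T cells with and without an Il10 UMI for the genes named by rule, with 1 point per gene and bars for the standard error. Gbp2b (1.41) and Lag3 (1.12) lead the genes that were higher and Swap70 (-1.67) and Il1rl1 (-1.57) those that were lower.

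The 2 classes were drawn unequally from the clusters of Foxp3+ T cells. Per library, 43.1% to 65.1% of the Foxp3+ cells of cluster 3 and 7.79% to 34.8% of those of cluster 7 held an Il10 UMI. Il1rl1, Klrg1 and Penk are among the 10 leading genes of cluster 7 and Mmp9 among those of cluster 3, so the comparison in part sets these clusters against each other, and no comparison within a cluster was made. Il1rl1, Penk and Klrg1 were higher in the cells without an Il10 UMI. Il1rl1 was at 138 ± 46.1 CPM in them and 46.2 ± 18.0 in cells with Il10 (-1.57, adjusted p = 7.5e-12), lower in 7 of 8 libraries. Penk, which encodes proenkephalin, was at 245 ± 120.3 and 84.5 ± 54.4 CPM (-1.53). Swap70 (-1.67), Ikzf4 (-1.36), which encodes the factor EOS, and Trat1 (-1.21) were lower in 8 of 8 libraries. Besides Lag3, the largest increases in cells with Il10 were in Gbp2b (1.41), Mmp9 (1.01), a matrix metalloproteinase, Nckap5 (0.99), Laptm4b (0.94), Gcnt2 (0.87), Iigp1 (0.84), an interferon-induced GTPase, the chemokines Cxcl2 (0.82) and Cxcl3 (0.73), and Entpd1 (0.72), which encodes the ectoenzyme CD39. Of the 9 tested surface genes, Lag3, Havcr2 (0.47), Ctla4 (0.40) and Icos (0.25) were higher and Klrg1 (-1.11), Pdcd1 (-0.97), Tnfrsf18 (-0.21) and Tnfrsf4 (-0.17) lower. The last 2 reached an adjusted p of 0.069 and 0.099 with 1 library left out. Il10rb differed by 0.12 (adjusted p = 0.82), at 42.4 ± 9.68 and 35.2 ± 11.4 CPM.

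A cell with more UMIs is more likely to show an Il10 UMI. With each cell thinned to 1000 UMIs before the split, 262 of the 356 genes could be tested, 258 of them kept their sign and 139 were called. The thinned classes were not matched in original depth: cells with an Il10 UMI then had the lower median of UMIs in all 8 libraries (2068 to 3236 against 2518 to 4164), whereas unthinned they had the higher median in 7 of 8. Lag3 (0.98), Maf (0.53) and Il1rl1 (-1.22) remained called, and Prdm1 was at 0.59 with an adjusted p of 0.081. Without DSS-treated mutant replicate 2, the library with the most Foxp3+ T cells, 223 genes were called.

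The likeness of other genes to each member was taken as Pearson's r of log2(CPM + 1) over 24 profiles, 3 T cell populations in 8 libraries, among 5226 genes (5227 for Il10ra) with a mean of at least 20 CPM. Profiles of 1 library share its depth and free RNA, and the populations dominate the pattern, so r is a description only. Il10 was most like Ubash3b (0.95), which encodes a suppressor of T cell receptor signalling, Gzmb (0.94), granzyme B, Sdf4 (0.94), Wls (0.94) and Ets2 (0.93). Il10rb was most like Lrrc32 (0.90), which encodes GARP, the anchor of latent TGF-β on regulatory T cells, Itgb8 (0.88), the integrin chain that releases TGF-β, Phlpp1 (0.87), Dst (0.86) and Iigp1 (0.86). For Il10ra the closest were Irf2bpl (0.76), Ddx17 (0.74), Lbr (0.71), Zc3hav1 (0.71) and Elf1 (0.70), at Il10ra levels of 1.79 to 9.99 CPM.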

How the data were processed

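Single-cell 3′ libraries of 8 samples in 4 groups were analysed. The authors deposited 1 table of raw UMI counts per library, a list of the cells they kept and a list of gene symbols in row order. Cell Ranger 3.1.0, Seurat 4.0.1 and the build mm10 are named per the submitters' processing notes, with no role given. How barcodes and kept cells were chosen is not given in the sources used here. The counts were whole numbers and were not normalized. In 7 tables rows carry numbers only. Of 30934 identifiers of the eighth table found in a reference, 30468 (98.49%) matched the symbol of their row, and row totals correlated between tables at r = 0.975 or more (0.318 or less when shifted). Doublet treatment by the authors is not given in the sources used here. Scrublet's automatic threshold called 0 cells and was replaced in an alternative by the highest-scoring 10% of barcodes.

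Listed cells were clustered in scanpy 1.11.5 (1777 of 2000 variable genes, with the members and the genes of all lists left out, 30 components, 15 neighbours, Leiden resolution 1), giving 19 clusters, 9 of them T cells. Limits for naming clusters were chosen once these had been inspected. Off-list barcodes with at least 400 genes and under 20% mitochondrial UMIs, 69301 in all, served as background and as an alternative. Shares of cells with an Il17a or Foxp3 UMI outside the T cells were added after the data had been seen. UMIs were summed per library and population and tested with edgeR 4.0.16 (quasi-likelihood, TMM, filterByExpr, Benjamini-Hochberg over all genes, called at an adjusted p under 0.05), with all 8 libraries in each fit and the library as a block between populations. The test was tried on simulated counts. Alternatives were DESeq2 1.42.0, library sizes without TMM, no low-count filter, at least 2 UMIs for a positive cell, cells chosen by UMIs, off-list barcodes added, likely doublets removed and each library left out. Intervals of counting error are not given, since tests rest on the spread between libraries.

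The members and the 7 gene lists were chosen with earlier results of these data known. Named were up to 6 called genes per list and comparison by size of change (with none called, up to 3 by unadjusted p), the 5 genes most like each member, and the 10 largest increases and 5 largest decreases of at least 20 CPM between cells with and without Il10. A called gene of the signalling list that this rule names is not reported here. In addition, every tested gene of the transcription factor and surface lists was looked up in that last comparison.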

Additional observations from a re-analysis of the deposited data

Results flagged for a closer look

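The effect of DSS on Il10 differed between populations by a test of the difference itself, in 4 cases. Between Foxp3+ and other T cells it differed by -0.7442 (log2) in wildtype mice (edgeR, adjusted p = 0.010), by -0.656 in mutant mice (adjusted p = 0.028) and by -0.7001 averaged over the genotypes (adjusted p = 2.8e-05). Within a genotype the Il10 difference in Foxp3+ T cells was itself not called (adjusted p = 0.31 in wildtype and 0.10 in mutant mice). Over alternatives the wildtype and the mutant difference were each called in 10 of 15, and the averaged one in 15 of 15. Between macrophages and other T cells it differed by -0.9996 in mutant mice (adjusted p = 0.024), called in 9 of 14 alternatives. The 3 cases other than that of Foxp3+ T cells in wildtype mice were added after the data had been seen. The averaged value is the mean of the wildtype and mutant values of the same fit. All cases use the other T cells as comparator and share libraries, so the 4 are not independent of each other. With 2 libraries per group, no group could be searched for a library far from the others.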

How the results depend on the processing

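No paired analysis was possible because the titles give no shared replicate numbers, and neighbouring title numbers were not read as pairs. Over 62 results and 819 alternatives, 325 of the alternatives that kept all libraries and 383 of those that left out 1 kept direction and side of the threshold. Of the former, 21 lost a call or gave a lower count of calls and 15 gained one or gave a higher count. A further 15 moved a share of cells with an Il10 UMI, and 11 changed sign. Of the latter the numbers were 30, 4, 0 and 15, in the same order. All sign changes were of values not called. Values below are log2 differences, and the cause of a change was not tested. A further 23 DESeq2 results had no adjusted p and were left out.

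Scaling by library sizes alone moved the median of all genes from 0.01 to 0.20 for DSS in macrophages averaged over genotypes (1781 of 2243 called genes higher, against 747 of 1645) and from 0.01 to -0.21 for macrophages against other T cells. It gave 0.48 for Il10rb in other T cells and 0.34 for Il10 in all T cells after DSS (averaged, both called), 0.65 for mutant macrophage Il10rb (called), 0.069 for averaged macrophage Il10ra, -0.35 for Il10rb in Il17a+ (not called) and 0.011 for Il10ra in Foxp3+ against other T cells. DESeq2 did not call the DSS effect in Foxp3+ against other T cells (-0.77 in wildtype, -0.68 in mutant) or in mutant macrophages against other T cells (-0.98), nor averaged Il10rb in all T cells (0.38) and macrophages (0.44). Without a low-count filter, calls were gained for Il10ra in Il17a+ T cells (-0.65), averaged Il10rb in other T cells (0.44), averaged Il10 (0.28) and wildtype Il10rb (0.55) in all T cells, and the genotype difference of macrophage Il10 (-1.26, 1 member called). Wildtype macrophage Il10ra became -0.0096.

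With at least 2 UMIs for a positive cell, the calls for Il10 after DSS in Foxp3+ T cells (-0.41 averaged), for Foxp3+ against other T cells (-0.69 in mutant, -0.55 in wildtype) and for Il10rb in Foxp3+ T cells (0.26) were lost, and Il10ra in Il17a+ T cells (-0.85) was called. With cells chosen by UMIs, calls were lost for Il10 after DSS in Foxp3+ T cells (-0.44), in mutant macrophages (-1.07), in Foxp3+ against other T cells (-0.95 in mutant, -0.84 in wildtype), in mutant macrophages against other T cells (-1.5), for averaged macrophage Il10rb (0.38) and Il10rb in Il17a+ T cells (-0.23). Il10 in all T cells was called (0.44), and signs changed for Il10ra in Foxp3+ T cells (0.13), Il10ra in wildtype macrophages (-0.15) and wildtype macrophages against other T cells (-0.53). With off-list barcodes, mutant Il10 in Foxp3+ T cells (-0.67), Il10ra in Il17a+ T cells (-0.87), Il10 in all T cells (0.32) and Il10rb in other T cells (0.42) were called, mutant macrophage Il10 (-0.65) and its difference from other T cells (-0.95) were not, and Il10ra in Foxp3+ T cells (0.34), averaged Il10rb in Foxp3+ T cells (0.037) and wildtype macrophages against other T cells (-0.26) changed sign. Without likely doublets the last was -0.082, Il10ra in Foxp3+ T cells 0.033 and Il10rb in Il17a+ T cells -0.33 (not called). Thinning called 194 genes between cells with and without Il10.

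Leaving out 1 library gave, for Il10 in Foxp3+ T cells, -0.12 to 0.21 (mutant against wildtype, untreated), -0.26 to 0.052 (after DSS) and -0.56 to -0.39 (averaged DSS). For Il10 in Il17a+ T cells it gave -0.49 to 0.18 (mutant DSS) and -0.022 to 0.46 (averaged), in other T cells -0.11 to 0.36 (mutant), in all T cells 0.20 to 0.36 (averaged) and in mutant macrophages -1.15 to -0.55. Averaged Il10rb ranged from -0.16 to 0.038 in Foxp3+, 0.30 to 0.55 in other and 0.33 to 0.46 in all T cells and 0.34 to 0.53 in macrophages. Macrophage Il10ra ranged from -0.027 to 0.053 (wildtype) and -0.24 to 0.0025 (averaged). Against other T cells, Il10ra ranged from -0.15 to 0.070 in Foxp3+ and -0.81 to -0.56 in Il17a+ T cells, and Il10rb from -0.43 to -0.29 in Il17a+ T cells. The DSS effect against other T cells ranged from -1.10 to -0.35 (Foxp3+, wildtype), -0.73 to -0.55 (Foxp3+, mutant), -0.27 to 0.36 (macrophages, wildtype) and -1.30 to -0.67 (macrophages, mutant). Genes called between cells with and without Il10 ranged from 223 to 356.

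Depth limits Il10ra in T cells, and 2 libraries per group limit every comparison of groups.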
